A study of Mus musculus with 16 samples.

Results

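The enzymes that make eicosanoids, the lipid mediators derived from arachidonic acid, were followed in the left lung of mice breathing ozone or room air. A list of 10 genes was used, made up of Ptgs1, Ptgs2, Ptges, Ptgds, Ptgis, Alox5, Alox5ap, Alox15, Ltc4s and Lta4h, and every probe set paired with exactly 1 of these symbols in the platform annotation was taken. That gave 13 probe sets of 8 genes, among 12393 genes with such a probe set and 22626 probe sets in all. Ptgs1 and Alox5 were not analysed here, since no probe set was paired with either symbol alone.

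Total RNA was measured on 16 arrays, 1 per mouse, in 4 groups of 4 mice on the C57BL/6 background with a mean age of 14 weeks. The groups were mice genetically deficient in adiponectin, a hormone of fat cells, after 72 h in 0.3 ppm ozone, wildtype mice after the same exposure, and deficient and wildtype mice after 72 h in room air. The lack of adiponectin was present in the whole animal and not in 1 cell type, and the sources used here do not say which part of the gene was removed. Each group held 2 males (M1 and M2) and 2 females (F1 and F2), and values of a group are given in that order. Levels are log2 intensities, and differences are log2 differences ± SE from 1 limma fit over all arrays, 4 a group. The p-values were adjusted by Benjamini and Hochberg's method over all 22626 probe sets. A probe set was called at an adjusted p under 0.05.

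Arachidonic acid is set free from membrane lipids by phospholipases. Cyclooxygenases (Ptgs1, Ptgs2) turn it into prostaglandin H2, from which separate terminal synthases make prostaglandin E2, prostaglandin D2 and prostacyclin. On the other branch 5-lipoxygenase (Alox5), with the help of its activating protein (Alox5ap), makes leukotriene A4, which Lta4h and Ltc4s turn into leukotriene B4 and the cysteinyl leukotrienes. In the lung these mediators are known for acting on airway and vessel tone and on the entry of leukocytes.

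Median intensities of the arrays lay between 145.9 and 153.8 on the linear scale. The 8 lung markers, surfactant proteins among them, averaged 12.60 to 12.87 on every array. Adipoq, the gene of adiponectin, ranged from 6.07 to 6.36 in deficient ozone mice against 7.70 to 8.76 in wildtype ozone mice, and from 6.32 to 8.82 in deficient air mice against 7.19 to 11.52 in wildtype air mice. The differences were -1.82 in ozone (limma adjusted p = 0.297) and -1.78 in air (limma adjusted p = 0.602), and the groups overlapped in air. Of the labels of wildtype ozone F1, a free-text one gave room air and the others gave ozone, so it was kept with the ozone mice. Of the air arrays, deficient air F2 and wildtype air F1 carried fat markers at 7.66 and 7.62, against at most 5.91 on the other arrays, and deficient air M2 carried markers of squamous epithelium and skeletal muscle at 9.60. Wildtype ozone M2 carried neutrophil markers at 11.36, against 7.56 to 8.75 on the other arrays. In whole lung, fewer cells of a type and less RNA per cell cannot be told apart. Markers of proliferating cells moved with ozone. All 6 rose in both genotypes, to means of 8.72 to 9.15 in deficient ozone mice against 6.21 to 6.24 in deficient air mice, and of 8.38 to 8.69 in wildtype ozone mice against 5.89 to 6.38 in wildtype air mice. Other marker lists held calls after ozone too. Of 9 fibroblast markers 4 were higher and 2 lower in deficient mice, and 4 higher and 3 lower in wildtype mice. Of 10 smooth muscle and pericyte markers 3 were higher in each genotype, and 2 were lower in wildtype mice alone. Of 10 T, NK and B cell markers 1 was higher and 2 lower in deficient mice, and 3 were lower in wildtype mice. The part of these other cells in the differences below was not tested.

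The 250 bases before the start of Ptges and of Ptgs2 are shown because these genes, which act in sequence in the synthesis of prostaglandin E2, were called in opposite directions after ozone in wildtype mice. The Ptgs2 call was lost in 18 of 32 alternatives, as given below, and its second probe set was not called. The sequences are RefSeq's, of the build GRCm38.p6, at chr2:30903298-30903547 on the minus strand for Ptges and at chr1:150099781-150100030 on the plus strand for Ptgs2, and 7 of the 10 listed genes had an entry. Capitals mark the GC box GGGCGG, read on both strands.
Ptges: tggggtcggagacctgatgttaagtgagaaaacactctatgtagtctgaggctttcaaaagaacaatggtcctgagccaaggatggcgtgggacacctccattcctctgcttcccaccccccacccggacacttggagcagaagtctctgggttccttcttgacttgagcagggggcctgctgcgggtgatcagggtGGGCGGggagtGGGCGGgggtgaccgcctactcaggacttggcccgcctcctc
Ptgs2: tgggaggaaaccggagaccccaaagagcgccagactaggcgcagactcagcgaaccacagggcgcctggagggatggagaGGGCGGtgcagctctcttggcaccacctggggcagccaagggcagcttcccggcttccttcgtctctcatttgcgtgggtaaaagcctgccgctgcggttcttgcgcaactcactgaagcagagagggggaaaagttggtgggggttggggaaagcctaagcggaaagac
Ptges holds 2 GC boxes, 53 and 42 bases before the start, and Ptgs2 holds 1 at 170 bases before it. A GC box stands in 32.7% of 32851 RefSeq promoters of this length. Neither window holds the TATA box TATAAA (in 12.4% of those promoters), the E-box CACGTG (6.02%), the core TGACG of the cyclic AMP response element (17.8%), the core TGANTCA of the AP-1 site (6.75%) or the CCAAT box (33.8%), on either strand. Bases past the RefSeq start or further upstream were not searched, so these motifs may stand just outside the windows.

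Ozone was followed by different changes among the 13 probe sets. In deficient mice 2 were called higher, against 14.5% of all probe sets, and 0 lower, against 14.8% of all, with 2 lower at an unadjusted p under 0.05. In wildtype mice 4 were called higher, against 18.2% of all probe sets, and 3 lower, against 18.2% of all. The median difference of the 13 was -0.02 in deficient mice, against 0.0022 over all probe sets, and 0.08 in wildtype mice, against 0.02 over all. With such shares of all probe sets called, the counts by themselves do not set the enzymes apart. Both probe sets of Ptges were called in both genotypes, and no other member was called in more than 1. The 7 calls in wildtype mice fell to 3 or 4 when any 1 of the 8 wildtype arrays was left out.

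**Figure D1:**
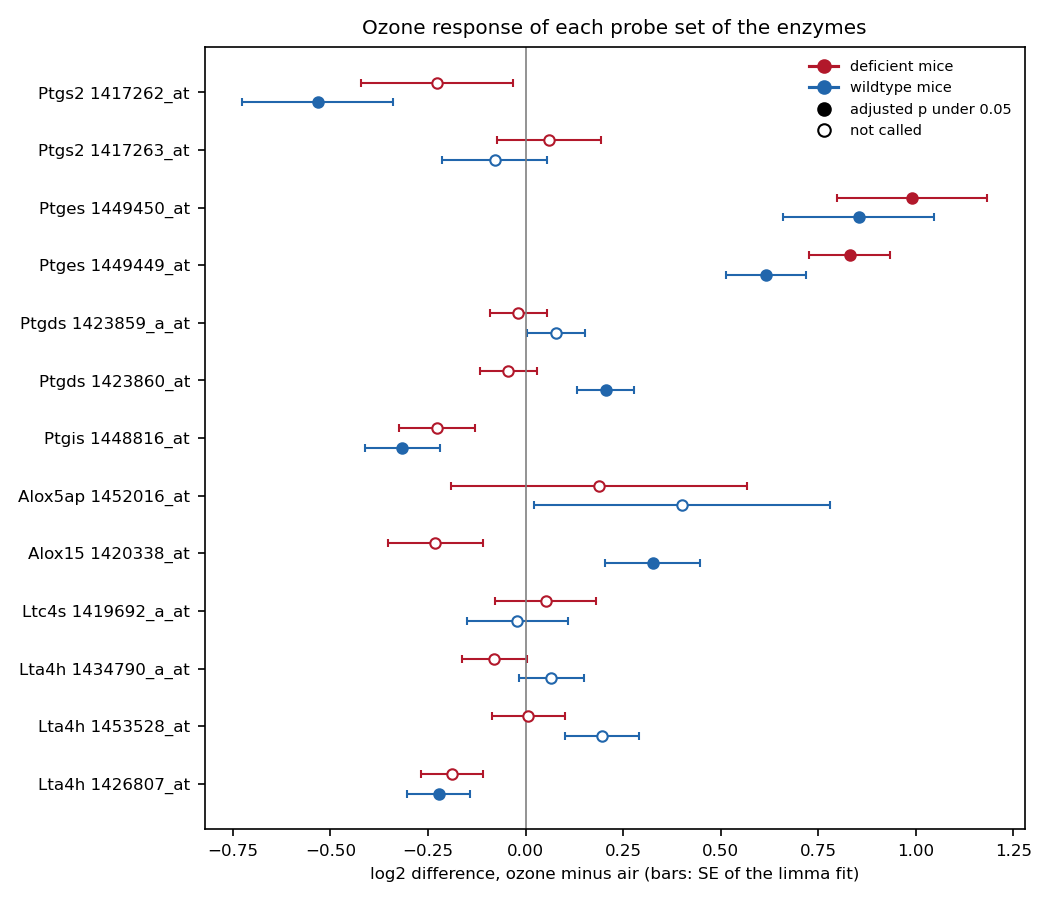
Log2 difference of ozone minus air for each of the 13 probe sets, in deficient mice (red, upper point of each pair) and wildtype mice (blue, lower point), with the SE of the limma fit as bars. Filled points have an adjusted p under 0.05, and only the 2 Ptges probe sets are filled in both genotypes.

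Ptges encodes microsomal prostaglandin E synthase 1, the inducible enzyme that makes prostaglandin E2. It rose after ozone in both genotypes. Its brighter probe set stood at 7.56, 7.95, 7.66 and 7.74 in deficient ozone mice, against 5.95, 6.76, 7.11 and 7.13 in deficient air mice. In wildtype ozone mice it stood at 7.71, 7.56, 7.78 and 7.55, against 6.42, 6.44, 7.31 and 7.02 in wildtype air mice. Every ozone array lay above every air array. The difference was 0.99 ± 0.19 in deficient mice (1.99-fold, limma adjusted p = 0.00134) and 0.85 ± 0.19 in wildtype mice (1.81-fold, limma adjusted p = 0.00327). The second probe set stood at 6.98, 7.21, 7.30 and 7.19 in deficient ozone mice, against 6.13, 6.09, 6.63 and 6.50 in deficient air mice. In wildtype ozone mice it stood at 7.01, 7.15, 7.14 and 7.08, against 6.33, 6.12, 6.85 and 6.60 in wildtype air mice. The groups did not overlap here either. The difference was 0.83 ± 0.10 in deficient mice (1.78-fold, limma adjusted p = 3.9e-05) and 0.62 ± 0.10 in wildtype mice (1.53-fold, limma adjusted p = 0.000373). The 2 probe sets followed each other over the 16 arrays (Pearson's r = 0.93, and 0.78 for deviations from the group means). With deficient air M2, deficient air F2 and wildtype air F1 left out, the brighter probe set differed by 1.20 in deficient mice (limma adjusted p = 0.00216) and by 0.98 in wildtype mice (limma adjusted p = 0.00253).

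The air values of Ptges were lower in males. The brighter probe set lay between 5.95 and 6.76 in the 4 males in air, against 7.02 to 7.31 in the 4 females in air. After ozone it lay between 7.56 and 7.95 in males, against 7.55 to 7.78 in females. The sexes thus overlapped after ozone and not in air. With each sex fitted alone, the ozone difference was 1.40 in deficient males against 0.58 in deficient females, and 1.21 in wildtype males against 0.50 in wildtype females. The difference between the sexes in the ozone response was 0.76 ± 0.21 (limma unadjusted p = 0.00341, adjusted p = 0.367) for this probe set and 0.39 ± 0.11 (limma unadjusted p = 0.00498, adjusted p = 0.401) for the second, so neither passed the adjustment. Over both exposures the second probe set was lower in males, by -0.29 ± 0.073 (limma adjusted p = 0.0252), a call lost without wildtype air F1, deficient air F1 or deficient ozone M1 (limma adjusted p = 0.0506 to 0.0572), and with the 3 air arrays above left out (-0.22, limma adjusted p = 0.107). The brighter one differed by -0.37 ± 0.14 (limma adjusted p = 0.112).

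**Figure D2:**
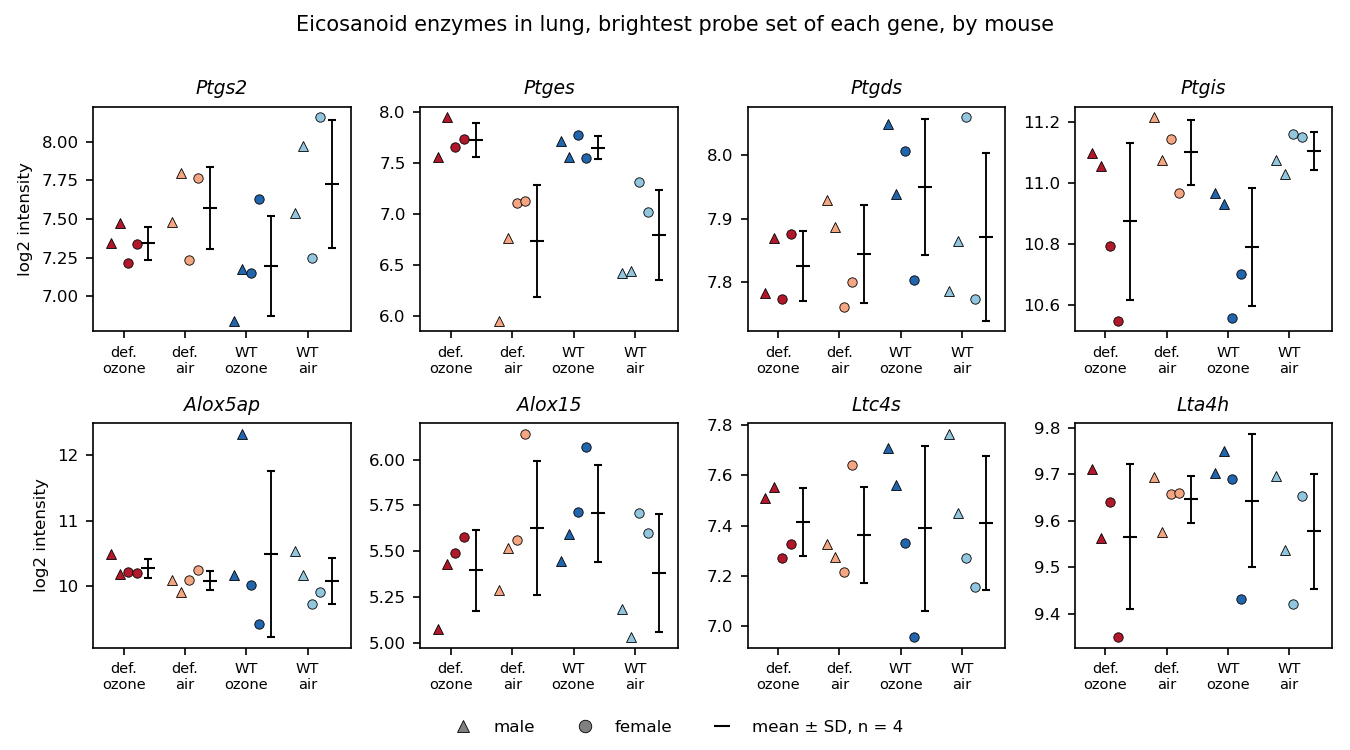
Log2 intensity of the brightest probe set of each of the 8 genes in every mouse, in deficient ozone, deficient air, wildtype ozone and wildtype air mice from left to right, with triangles for males, circles for females, and the mean ± SD of 4 mice beside them. Scales differ between panels. The 8 ozone arrays of Ptges all lie above its air arrays, and 1 wildtype ozone array of Alox5ap lies far above the rest.

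Ptgs2 encodes cyclooxygenase 2, the inducible enzyme upstream of the prostaglandin synthases. Its brighter probe set stood at 7.34, 7.48, 7.21 and 7.34 in deficient ozone mice, against 7.48, 7.80, 7.23 and 7.76 in deficient air mice. In wildtype ozone mice it stood at 6.84, 7.17, 7.15 and 7.63, against 7.54, 7.98, 7.24 and 8.16 in wildtype air mice. The groups overlapped in both genotypes. It fell in wildtype mice by 0.53 ± 0.19 on the log2 scale (1.45-fold lower, limma adjusted p = 0.0431), and the difference in deficient mice was -0.23 ± 0.19 (limma adjusted p = 0.420). The difference of these responses was 0.31, with a 95% interval of -0.28 to 0.89 (limma adjusted p = 0.974). The call in wildtype mice was lost in 18 of 32 alternatives, over which the difference lay between -0.75 and -0.31 and the limma adjusted p between 0.00593 and 0.511. Leaving out wildtype air M2 or F2, wildtype ozone M1, M2 or F1, deficient air M1 or any 1 of the 4 deficient ozone arrays ended it (limma adjusted p = 0.05005 to 0.145). With the 3 air arrays above left out the difference was -0.72 (limma adjusted p = 0.00636). The second probe set was dim, with means of 5.15 to 5.38 over the 4 groups, and differed by 0.06 in deficient and -0.08 in wildtype mice, neither of them called.

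Ptgis encodes prostacyclin synthase, which makes the vasodilator prostacyclin. Its only probe set stood at 11.10, 11.06, 10.79 and 10.55 in deficient ozone mice, against 11.22, 11.08, 11.15 and 10.97 in deficient air mice. Wildtype ozone mice had 10.97, 10.93, 10.56 and 10.70, against 11.08, 11.03, 11.16 and 11.15 in wildtype air mice. The wildtype groups did not overlap and the deficient groups did. Ptgis fell in wildtype mice by 0.32 ± 0.097 on the log2 scale (1.24-fold lower, limma adjusted p = 0.0195), and the difference in deficient mice was -0.23 ± 0.097 (limma adjusted p = 0.0933). Leaving out wildtype air F1, wildtype air F2 or wildtype ozone F1 ended the call (-0.27 to -0.26, limma adjusted p = 0.0627 to 0.0647), as did leaving out the 3 air arrays above (-0.26, limma adjusted p = 0.0691). With each sex fitted alone, the difference was -0.07 in deficient males against -0.39 in deficient females, and -0.10 in wildtype males against -0.53 in wildtype females. The difference between the sexes in the ozone response was 0.37 ± 0.099 (limma unadjusted p = 0.00270, adjusted p = 0.346). After ozone the 4 males lay between 10.93 and 11.10, all above the 4 females at 10.55 to 10.79, whereas the sexes overlapped in air.

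Ptgds encodes lipocalin-type prostaglandin D synthase. Its brighter probe set lay between 7.76 and 8.06 on all 16 arrays. It differed by -0.02 ± 0.073 in deficient mice and by 0.08 ± 0.073 in wildtype mice, neither called, with 95% intervals of -0.17 to 0.14 and -0.08 to 0.23. The dim second probe set averaged 4.93 in deficient ozone mice against 4.98 in deficient air mice, and 5.13 in wildtype ozone mice against 4.92 in wildtype air mice. It was called higher in wildtype mice, by 0.21 ± 0.073 (limma adjusted p = 0.0388), so the 2 probe sets differed in their calls. This call was lost without wildtype air M1, M2 or F1 or wildtype ozone M1, F1 or F2 (limma adjusted p = 0.0579 to 0.106), and with the 3 air arrays above left out (limma adjusted p = 0.0832). No detection calls were used here. For Eif2s3y, Kdm5d and Uty, Y-linked genes that females lack, the 8 arrays of females gave 3.82 to 4.46.

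The leukotriene branch held 5 of the 13 probe sets, and the brightest ones of Alox5ap, Ltc4s and Lta4h passed no test of ozone, genotype or sex over all 16 arrays, though Ltc4s differed between the sexes with some arrays left out. Alox5ap encodes the membrane protein that presents arachidonic acid to 5-lipoxygenase, known as FLAP, and is known for its expression in leukocytes. It stood at 10.49, 10.19, 10.22 and 10.20 in deficient ozone mice, against 10.09, 9.91, 10.09 and 10.26 in deficient air mice. Wildtype ozone mice had 10.18, 12.33, 10.02 and 9.43, against 10.54, 10.17, 9.73 and 9.91 in wildtype air mice. A single array, wildtype ozone M2, stood apart. The difference was 0.19 ± 0.38 in deficient mice (limma adjusted p = 0.753) and 0.40 ± 0.38 in wildtype mice (limma adjusted p = 0.437). Without wildtype ozone M2 the wildtype difference was -0.17 (limma adjusted p = 0.462).

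Wildtype ozone M2 was also the array with the most neutrophil signal. S100a8 and S100a9, calcium-binding proteins abundant in neutrophils, stood there at 13.68 and 14.31, against 9.44 to 11.84 and 9.12 to 11.46 on the other 15 arrays. Of the 11 neutrophil markers 1, Lcn2, rose with ozone, in both genotypes. Over the 16 arrays Alox5ap followed the mean of the 11 markers, as a description, with Pearson's r = 0.93 and Spearman's rho = 0.71. Without wildtype ozone M2 r was 0.58 over 15 arrays, and without the 2 arrays farthest in the marker mean it was 0.65. It also followed the mean of 12 markers of monocytes and macrophages (r = 0.64 over 16 arrays, rho = 0.77), with r = 0.89 over the 15 arrays without wildtype ozone M2. The genes whose pattern was most like that of Alox5ap over the 16 arrays were Tyrobp (r = 0.96), Trem3 (r = 0.95) and Fcgr3 (r = 0.95). Without the 2 arrays farthest in Alox5ap these were 0.96, 0.56 and 0.89.

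**Figure D3:**
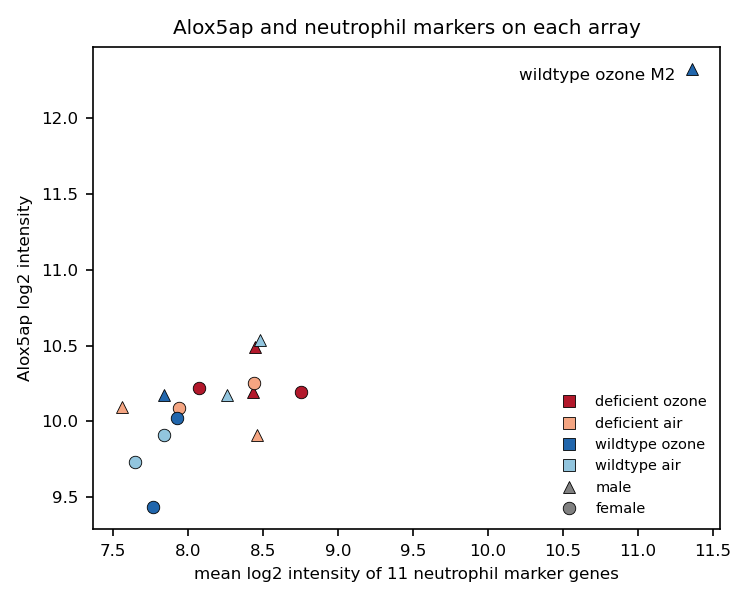
Alox5ap log2 intensity against the mean log2 intensity of 11 neutrophil marker genes on each of the 16 arrays, coloured by group, with triangles for males and circles for females. Wildtype ozone M2 lies alone at 11.36 and 12.33, and the other 15 arrays lie between 7.56 and 8.75 on the horizontal axis.

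Ltc4s encodes leukotriene C4 synthase, the first enzyme of the cysteinyl leukotrienes. It stood at 7.51, 7.55, 7.27 and 7.33 in deficient ozone mice, against 7.33, 7.27, 7.21 and 7.64 in deficient air mice. The values were 7.71, 7.56, 7.33 and 6.96 in wildtype ozone mice, against 7.76, 7.45, 7.27 and 7.16 in wildtype air mice. The groups overlapped throughout. The ozone difference was 0.05 ± 0.13 in deficient mice (95% interval -0.23 to 0.33) and -0.02 ± 0.13 in wildtype mice (95% interval -0.30 to 0.26), neither called. Ltc4s averaged 7.52 in males against 7.27 in females, a difference of 0.25 ± 0.092 (limma adjusted p = 0.109). This difference was called without deficient air F2 (0.32, limma adjusted p = 0.0143), the female with the highest value, and with the 3 air arrays above left out (0.34, limma adjusted p = 0.0281). As a description over the 16 arrays, it followed the mean of the 10 alveolar macrophage markers with Pearson's r = 0.67 and Spearman's rho = 0.59 (r = 0.86 for deviations from the group means, and 0.45 without the 2 arrays farthest in the marker mean). It followed the mean of the 12 markers of monocytes and macrophages with r = 0.74 and rho = 0.71 (0.77 for deviations from the group means, and 0.67 without the 2 arrays farthest in that mean).

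Lta4h encodes leukotriene A4 hydrolase, which makes leukotriene B4, an attractant of neutrophils. Its 3 probe sets had correlations between -0.21 and 0.02 over the 16 arrays. For deviations from the group means r was 0.50 between the second and the dimmest, and -0.18 and -0.28 between the brightest and these. The brightest lay between 9.35 and 9.75 on all arrays and differed by -0.08 ± 0.083 in deficient mice and 0.07 ± 0.083 in wildtype mice, neither called. The second averaged 7.10 in deficient ozone mice against 7.09 in deficient air mice, and 7.36 in wildtype ozone mice against 7.17 in wildtype air mice, where its difference was 0.20 (limma adjusted p = 0.118) and was called in males alone (0.41, limma adjusted p = 0.0323). The third, which was dim, stood at 4.96, 5.001, 5.27 and 5.26 in deficient ozone mice, against 5.01, 5.26, 5.53 and 5.44 in deficient air mice. Wildtype ozone mice gave 5.17, 4.99, 5.07 and 5.03, against 5.20, 5.20, 5.41 and 5.34 in wildtype air mice. The wildtype groups did not overlap. It fell in wildtype mice by 0.22 ± 0.080 on the log2 scale (limma adjusted p = 0.0408), and the difference in deficient mice was -0.19 ± 0.080 (limma adjusted p = 0.0917), called without deficient air M1 (-0.26, limma adjusted p = 0.0200). The call was lost without any 1 of the wildtype air arrays, wildtype ozone M2, F1 or F2, or deficient ozone M2 (limma adjusted p = 0.0502 to 0.123), and with the 3 air arrays above left out (limma adjusted p = 0.0992).

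Alox15 encodes a lipoxygenase that oxygenates arachidonic acid away from the leukotriene pathway and is known for making lipoxin precursors and hydroxy fatty acids. It stood at 5.08, 5.43, 5.49 and 5.58 in deficient ozone mice, against 5.28, 5.52, 5.56 and 6.14 in deficient air mice. Values of 5.45, 5.60, 5.71 and 6.07 were found in wildtype ozone mice, against 5.19, 5.03, 5.71 and 5.60 in wildtype air mice. All groups overlapped with their air group. The difference was -0.23 ± 0.12 in deficient mice (limma adjusted p = 0.174) and 0.33 ± 0.12 in wildtype mice (1.25-fold, limma adjusted p = 0.0478). The call in wildtype mice was lost in 17 of 32 alternatives, over which the difference lay between 0.24 and 0.41 and the limma adjusted p between 0.0152 and 0.436. It ended without wildtype air M1, M2 or F2, deficient air M1, wildtype ozone M1, M2 or F2, or deficient ozone M1, F1 or F2 (limma adjusted p = 0.0512 to 0.135). The difference of the responses was -0.56 ± 0.17 with an unadjusted p of 0.00551, and it did not pass the adjustment (limma adjusted p = 0.974). The highest air array, deficient air F2, was 1 of those with fat markers. With the 3 air arrays above left out the difference was -0.03 in deficient mice (limma adjusted p = 0.902) and 0.38 in wildtype mice (limma adjusted p = 0.0152).

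No probe set of the 13 passed the test between deficient and wildtype mice. In ozone 0 of 13 were called by limma, against 0.0133% of all probe sets, and 3 were lower in deficient mice at an unadjusted p under 0.05. These were the dim probe set of Ptgds (-0.19), Alox15 (-0.31) and the second probe set of Lta4h (-0.27), with limma adjusted p-values of 0.368, 0.374 and 0.338. In air 0 of 13 were called, against 0.00884% of all, and 0 had an unadjusted p under 0.05. Of the differences between the ozone responses of the genotypes 0 of 13 were called, against 0% of all, and 2 had an unadjusted p under 0.05, those of Alox15 and the dim probe set of Ptgds. For the brighter Ptges probe set the genotype difference was 0.08 in ozone, with a 95% interval of -0.34 to 0.49, and -0.06 in air, with a 95% interval of -0.47 to 0.35. These comparisons share their arrays with those of ozone.

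Between males and females 0 of 13 probe sets were called higher, against 5.41% of all, and 3 lower, against 3.77% of all, with 2 higher at an unadjusted p under 0.05. Alox15 was the clearest of the 3. It averaged 5.32 ± 0.21 in males and 5.73 ± 0.24 in females (SD, n = 8 each, which mix the 4 groups), a difference of -0.41 ± 0.086 (1.33-fold lower, limma adjusted p = 0.00939). The sexes overlapped, with males between 5.03 and 5.60 and females between 5.49 and 6.14. The call held without any 1 array and with the 3 air arrays above left out (-0.35, limma adjusted p = 0.0186). The other calls were the second probe set of Ptges, above, and the dim one of Lta4h, which differed by -0.20 (limma adjusted p = 0.0422), a call lost without 12 of the 16 arrays in turn (limma adjusted p = 0.0501 to 0.0913) and with the 3 air arrays above left out (limma adjusted p = 0.118), and held without deficient air M2 or wildtype ozone M1, F1 or F2. Other cell markers moved with sex. In males 5 of 7 platelet markers and 2 of 12 markers of monocytes and macrophages were higher. Lower in males were 4 of 10 smooth muscle and pericyte markers, 2 of 9 fibroblast markers and 2 of 10 mast cell markers, Cma1 and Hdc. A single marker was higher among 10 of alveolar macrophages and among 7 of alveolar type 2 cells, and lower among 5 of ciliated cells. The part of these cells in the differences of the enzymes was not tested. In the ozone response 0 of 13 probe sets were called to differ between the sexes, against 0.00442% of all, and 3 had an unadjusted p under 0.05, those of Ptges and Ptgis. For Alox5ap that difference was 0.65 over all arrays. It was 1.18 without wildtype ozone M1, which left wildtype ozone M2 as the only male of its group, and 0.11 without wildtype ozone M2.

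The enzymes, transporters and receptors around the 10 genes were counted by the brightest probe set of each gene. Of 68 genes measured in 5 lists, 6 were called higher and 8 lower after ozone in deficient mice, and 8 higher and 8 lower in wildtype mice. Over all 12393 genes the shares were 15.6% higher and 14.5% lower in deficient mice, and 19.5% higher and 17% lower in wildtype mice. Of the 68 genes 0 were called between the genotypes in ozone, in air or in the interaction, with 8, 7 and 1 at an unadjusted p under 0.05. Pla2g1b, a secreted phospholipase A2, had the smallest p of these in ozone (-0.76 ± 0.12, limma adjusted p = 0.0684), and its difference in air was -0.44 ± 0.12 (limma adjusted p = 0.555).

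**Figure D4:**
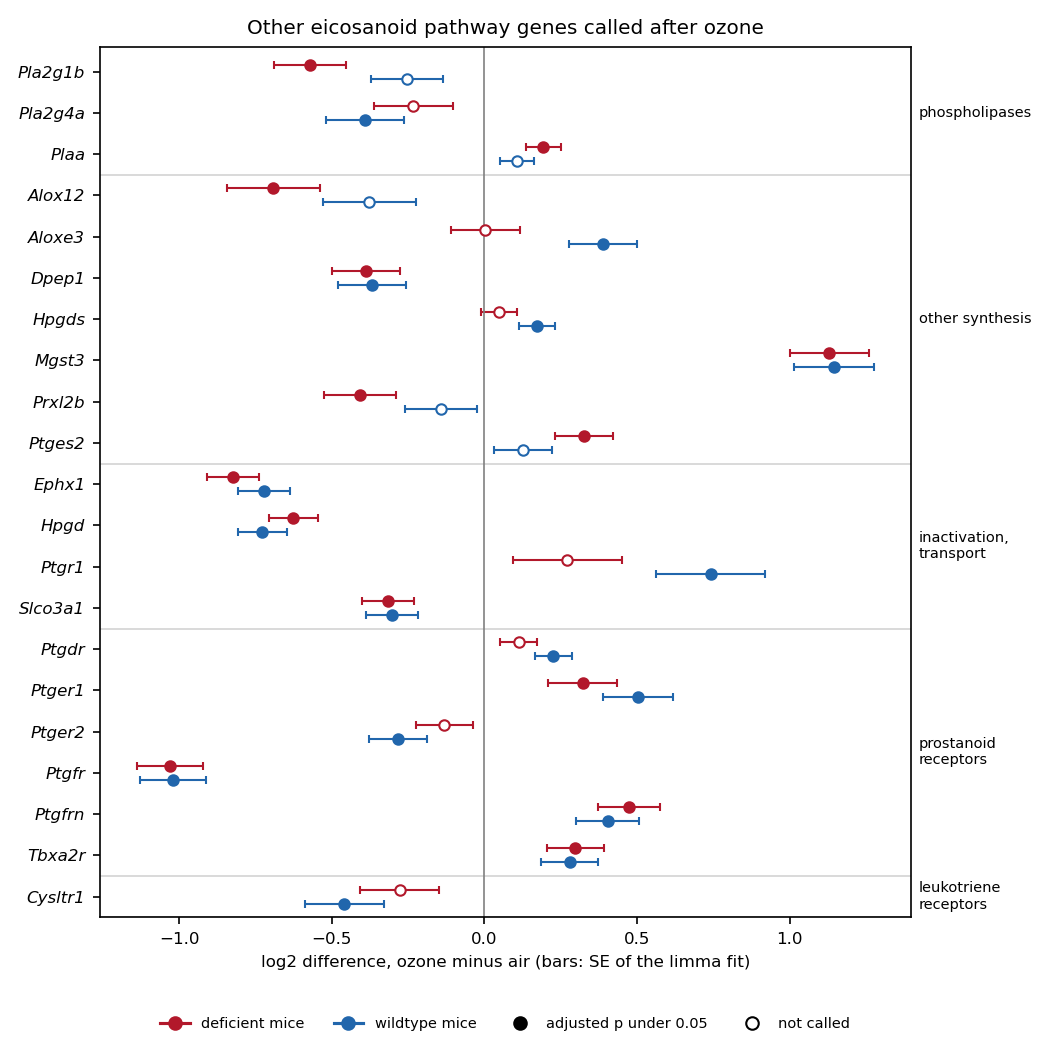
Log2 difference of ozone minus air for the 21 genes of the 5 lists that were called in at least 1 genotype, in deficient mice (red, upper point) and wildtype mice (blue, lower point), with the SE of the limma fit as bars and filled points for an adjusted p under 0.05. Mgst3 lies near 1.1 and Ptgfr near -1.0 in both genotypes.

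Among 20 phospholipases and other genes of arachidonate release, the count was 1 higher and 1 lower in deficient mice and 0 higher and 1 lower in wildtype mice. Pla2g4a, the cytosolic phospholipase that frees arachidonic acid, differed by -0.23 ± 0.13 in deficient mice (limma adjusted p = 0.196) and fell in wildtype mice by 0.39 ± 0.13 on the log2 scale (limma adjusted p = 0.0272). Leaving out wildtype air M2, wildtype air F2 or wildtype ozone M1 ended the call (limma adjusted p = 0.0554 to 0.0980). Pla2g1b fell in deficient mice by 0.57 ± 0.12 on the log2 scale (limma adjusted p = 0.00204), and its 3 other probe sets were not called. The brightest one averaged 8.32 in wildtype ozone mice against 8.57 in wildtype air mice, not called. Plaa, a phospholipase-activating protein, rose in deficient mice by 0.19 ± 0.056 (limma adjusted p = 0.0176), a call lost without deficient air M1 or deficient ozone M2 (limma adjusted p = 0.0676 and 0.0551). It averaged 8.47 in wildtype ozone mice against 8.36 in wildtype air mice, not called. Its other probe set had the calls the other way round, with 0.16 in deficient mice (limma adjusted p = 0.141) and a rise of 0.29 in wildtype mice (limma adjusted p = 0.0109).

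Of 20 other synthesis enzymes, 2 were higher and 3 lower in deficient mice, and 3 higher and 1 lower in wildtype mice. Mgst3, a microsomal glutathione transferase that can conjugate leukotriene A4, rose in both genotypes. It lay between 10.38 and 10.81 in deficient ozone mice against 9.14 to 9.75 in deficient air mice, and between 10.48 and 10.80 in wildtype ozone mice against 9.09 to 9.94 in wildtype air mice. The groups did not overlap. Its difference was 1.13 ± 0.13 in deficient mice (2.19-fold, limma adjusted p = 2.0e-05) and 1.15 ± 0.13 in wildtype mice (2.21-fold, limma adjusted p = 1.95e-05), and its dim second probe set was not called (0.15 and 0.16). Dpep1, a dipeptidase that trims leukotriene D4 to E4, fell in both genotypes, by 0.39 ± 0.11 in deficient mice (limma adjusted p = 0.0164) and 0.37 ± 0.11 in wildtype mice (limma adjusted p = 0.0186), and its second probe set was also lower in both (-0.57 and -0.48). Both calls of the first were lost with the 3 air arrays above left out (limma adjusted p = 0.0503 in deficient and 0.0749 in wildtype mice), the wildtype one also without wildtype air F1 or wildtype ozone M1 (limma adjusted p = 0.0578 and 0.0651).

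Alox12, the platelet-type lipoxygenase, fell in deficient mice by 0.69 ± 0.15 on the log2 scale (1.62-fold lower, limma adjusted p = 0.00298), and its difference in wildtype mice was -0.38 ± 0.15 (limma adjusted p = 0.0638). Of 7 platelet markers 5 were lower after ozone in deficient mice, while in wildtype mice 1 was higher and 1 lower. Their median difference was -0.43 in deficient mice and -0.035 in wildtype mice. In wildtype ozone mice Alox12 stood at 7.16, 7.80, 6.83 and 6.97, and the mean of the 7 platelet markers at 7.55, 8.30, 7.32 and 7.20. The part of platelets in the Alox12 differences was not tested. The Alox12 difference in deficient mice was -0.52 with the 3 air arrays above left out (limma adjusted p = 0.0540), and the same -0.52 was called with wildtype ozone M2 left out too (limma adjusted p = 0.00872). Ptges2, a second prostaglandin E synthase, rose in deficient mice by 0.33 ± 0.095 (limma adjusted p = 0.0170), and Prxl2b, a prostamide and prostaglandin F synthase, fell there by 0.41 ± 0.12 (limma adjusted p = 0.0166). Neither was called in wildtype mice, where the means after ozone and in air were 7.18 and 7.05 for Ptges2 and 7.57 and 7.71 for Prxl2b. The call of Ptges2 was lost without deficient air F2, deficient ozone M1 or deficient ozone F2 (limma adjusted p = 0.0543 to 0.0585), and that of Prxl2b without deficient air M2 or deficient ozone F2 (limma adjusted p = 0.0508 and 0.0531) and with the 3 air arrays above left out (-0.29, limma adjusted p = 0.118). The highest Prxl2b value, 8.38, was that of deficient air M2, the array with squamous epithelium and skeletal muscle markers. Aloxe3, a lipoxygenase known from skin, rose in wildtype mice by 0.39 ± 0.11 (limma adjusted p = 0.0144), and Hpgds, the haematopoietic prostaglandin D synthase, rose there by 0.17 ± 0.058 (limma adjusted p = 0.0310). Neither was called in deficient mice, where the means after ozone and in air were 7.16 and 7.16 for Aloxe3 and 4.84 and 4.79 for Hpgds. The Aloxe3 call was lost without wildtype air M2 (limma adjusted p = 0.0542), and the Hpgds call without wildtype air M2 or F2 or wildtype ozone M1 or M2 (limma adjusted p = 0.0656 to 0.0939) and with the 3 air arrays above left out (limma adjusted p = 0.0515).

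Inactivation and transport held 13 measured genes, of which 0 were higher and 3 lower in deficient mice, and 1 higher and 3 lower in wildtype mice. Hpgd, the dehydrogenase that starts the breakdown of prostaglandins, lay between 11.76 and 12.35 in deficient ozone mice against 12.56 to 12.91 in deficient air mice, and between 11.69 and 12.11 in wildtype ozone mice against 12.52 to 12.94 in wildtype air mice. It fell by 0.63 ± 0.081 on the log2 scale in deficient mice (1.54-fold lower, limma adjusted p = 5.1e-05) and by 0.73 ± 0.081 in wildtype mice (1.66-fold lower, limma adjusted p = 1.62e-05). Its second probe set differed by -0.27 in deficient mice, not called, and was lower in wildtype mice (-0.55, limma adjusted p = 0.0194). Ephx1, an epoxide hydrolase, lay between 10.09 and 10.63 in deficient ozone mice against 11.14 to 11.37 in deficient air mice, and between 10.41 and 10.91 in wildtype ozone mice against 11.23 to 11.40 in wildtype air mice. It fell by 0.82 ± 0.084 in deficient mice (1.77-fold lower, limma adjusted p = 7.3e-06) and by 0.72 ± 0.084 in wildtype mice (1.65-fold lower, limma adjusted p = 2.5e-05). For both genes no ozone array reached the level of an air array of its genotype, and the calls held in all 32 alternatives.

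Slco3a1, a transporter of prostaglandins, fell in both genotypes, by 0.32 ± 0.085 in deficient mice (limma adjusted p = 0.0110) and 0.30 ± 0.085 in wildtype mice (limma adjusted p = 0.0122), and its other probe sets were not called. With the 3 air arrays above left out the deficient call was lost (-0.32, limma adjusted p = 0.0577). Ptgr1, a reductase that inactivates leukotriene B4 and prostaglandins, differed by 0.27 ± 0.18 in deficient mice (limma adjusted p = 0.280) and rose in wildtype mice by 0.74 ± 0.18 (1.67-fold, limma adjusted p = 0.00470). Its values in deficient air mice were 10.22, 11.24, 10.64 and 10.44, the highest being that of deficient air M2, the array with squamous epithelium and skeletal muscle markers. Slco2a1, the prostaglandin transporter, was not called by its brightest probe set, while another of its probe sets was lower in both genotypes, by -0.44 in deficient mice (limma adjusted p = 0.000500) and -0.53 in wildtype mice (limma adjusted p = 0.000102). Its remaining probe set was lower in wildtype mice (-0.34, limma adjusted p = 0.00597) and not called in deficient mice (-0.17).

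Of 10 prostanoid receptor genes, 3 were higher and 1 lower in deficient mice, and 4 higher and 2 lower in wildtype mice. Ptgfr, the receptor of prostaglandin F, lay between 5.60 and 6.13 in deficient ozone mice against 6.86 to 7.12 in deficient air mice, and between 5.68 and 6.03 in wildtype ozone mice against 6.72 to 7.01 in wildtype air mice. It fell by 1.03 ± 0.11 in deficient mice (2.04-fold lower, limma adjusted p = 8.7e-06) and by 1.02 ± 0.11 in wildtype mice (2.03-fold lower, limma adjusted p = 1.12e-05). Its other probe sets were also lower in both genotypes, at -0.77 and -0.82 in deficient mice and -0.68 for each in wildtype mice. Ptgfrn, a membrane protein that binds this receptor, rose by 0.47 ± 0.10 in deficient mice (limma adjusted p = 0.00269) and 0.40 ± 0.10 in wildtype mice (limma adjusted p = 0.00651). Ptger1, a receptor of prostaglandin E2, rose by 0.32 ± 0.11 in deficient mice (limma adjusted p = 0.0448), a call lost without any of 11 arrays in turn (limma adjusted p = 0.0518 to 0.129) and with the 3 air arrays above left out (0.21, limma adjusted p = 0.307), and by 0.50 ± 0.11 in wildtype mice (limma adjusted p = 0.00326).

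Tbxa2r, the thromboxane receptor, rose by 0.30 ± 0.093 in deficient mice (limma adjusted p = 0.0245) and 0.28 ± 0.093 in wildtype mice (limma adjusted p = 0.0286). These calls were lost without deficient air F1, deficient air F2 or deficient ozone F2, and without wildtype air M2, wildtype air F2, wildtype ozone M1 or wildtype ozone F1 (limma adjusted p = 0.0545 to 0.104). The deficient call was also lost with the 3 air arrays above left out (limma adjusted p = 0.105). Ptgdr, a receptor of prostaglandin D2, differed by 0.11 ± 0.061 in deficient mice (limma adjusted p = 0.186) and rose in wildtype mice by 0.23 ± 0.061 (limma adjusted p = 0.00945). Ptger2, another receptor of prostaglandin E2, fell in wildtype mice by 0.28 ± 0.094 on the log2 scale (limma adjusted p = 0.0279), a call lost without wildtype air M1, F1 or F2 or wildtype ozone M1 or F1 (limma adjusted p = 0.0560 to 0.0866), and with the 3 air arrays above left out (limma adjusted p = 0.0526). It averaged 7.16 in deficient ozone mice against 7.29 in deficient air mice, not called. Of 5 receptors of leukotrienes and lipoxins, 0 were called in deficient mice and 1 was lower in wildtype mice. Cysltr1, a receptor of cysteinyl leukotrienes, differed by -0.28 ± 0.13 in deficient mice (limma adjusted p = 0.125, unadjusted p = 0.0490) and fell in wildtype mice by 0.46 ± 0.13 on the log2 scale (limma adjusted p = 0.0124), while its second probe set was not called.

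Genes whose pattern over the 16 arrays was most like that of each enzyme were taken by Pearson's correlation with its brightest probe set, as a description. For Ptges these were Vars (r = 0.94), Dnajc17 (r = 0.93) and Bcat2 (r = 0.93), with 0.87, 0.85 and 0.82 for deviations from the group means. For Ptgis they were Mrpl9 (r = 0.94), Jam2 (r = 0.93) and Nanp (r = 0.90), with 0.91, 0.87 and 0.82 for the deviations. For Alox15 they were Slc24a3 (r = 0.84), Sucnr1 (r = 0.81) and Fmod (r = 0.80). For Ptgs2 they were Dusp18, Dnaaf5 and Prps1 (r = 0.82 to 0.87), for Ptgds Mettl7b, Ercc2 and Cox8c (r = 0.83 to 0.91), for Ltc4s Rnf4, Ccl6 and Ms4a8a (r = 0.81 to 0.83) and for Lta4h Plekhb2, Creb3 and Psmd5 (r = 0.76 to 0.80). The correlations share arrays and the effect of ozone, and each is the highest of many.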

How the data were processed

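Biotin-labelled RNA from the left lung of each of 16 mice was read on an Affymetrix mouse array of its own. The deposited values are intensities, which the authors made with RMA per the submitters' processing notes (background correction, normalization between arrays, summary over probes). The sources used here do not name the software. Since the deposited intensities were linear, from 11.1 to 26974.7, their log2 was taken. Normalization between arrays leaves a change of all RNA together invisible, and 4 arrays a group limit the precision.

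Of 22690 probe sets 64 controls were dropped. By the platform annotation, which can be old, 20380 of the rest carried a single gene symbol, 691 carried several and 1555 carried none. All of these entered the fit (lmFit, then eBayes, of limma 3.58.1 under R 4.3.3), with the 4 groups and sex as terms. The difference of the ozone response between the sexes came from a fit of 8 groups, 1 for each sex of each group. Calls were made at a Benjamini-Hochberg adjusted p under 0.05 over all probe sets. The fit was tested on simulated data. Whether mice shared litters or cages is not given. The p-values set each difference against the spread between mice within the groups and take the mice as independent.

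The members and gene lists were chosen with earlier results of these data known. Named genes of the lists were those called after ozone in either genotype, at most 6 a list by smallest p, with Hpgds added so that all are given. Some named probe sets were chosen after their values were seen: those that disagreed within a gene. For each enzyme the 3 genes with the highest Pearson correlation were named. The labels do not say whether replicate numbers pair the mice. The difference of replicate 1 minus 2 within a sex was correlated between groups, and 1 of 12 correlations was over 0.1. Small shared effects could be missed in this way, so pairing is not excluded. As alternatives, arrays were quantile-normalized again or shifted to 1 median, the dimmest 25% of probe sets were left out, and the fit was run with 1 probe set or the mean per gene, a trend with robust prior, array weights, no sex term, the replicate number as a block, the compared groups alone, each sex alone, stricter thresholds, and each array or the arrays with markers of other tissues left out. Leaving out these and wildtype ozone M2 together was added after the data were seen. Promoter sequences were RefSeq's. Figures were drawn with matplotlib 3.10.9 (Python 3.11.15, pandas 2.3.3).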

Additional observations from a re-analysis of the deposited data

Results flagged for a closer look

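Alox5ap in deficient ozone M1, at 10.491, lay above the other 3 mice of its group, at 10.194 to 10.222, with a gap of 0.905 of the group's range past Dixon's 95% critical value. It was the only one of 52 groups of 4 values, each a probe set in a group, so marked, and chance marks about 1 in 20.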

How the results depend on the processing

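The rise of Ptges kept its direction in every alternative and genotype. Its brighter probe set stayed called throughout, and the second lost the call in wildtype females alone (0.38, adjusted p = 0.0562). The 7 calls among 13 probe sets after ozone in wildtype mice became 4 of 8 with 1 probe set a gene, 3 of 8 with the mean per gene, 4 with another quantile normalization, 2 at an adjusted p under 0.01, 2 at a fold of at least 1.5, 4 in males, 3 in females, 4 without the 3 air arrays with markers of other tissues, and 3 to 7 without 1 array. The 2 calls in deficient mice became 1 of 8 with 1 probe set or the mean per gene, and 2 or 3 without 1 array. The 3 calls by sex became 1 of 8 with 1 probe set or the mean per gene, 1 at an adjusted p under 0.01, 0 at a fold of at least 1.5, and 1 to 3 without 1 array. The 0 calls for ozone by sex became 0 to 1 without 1 array, and genotype and its interaction with ozone stayed at 0. Over all comparisons of the 13 probe sets and the called genes of the lists, 3400 alternative values kept their side of the threshold, 230 lost a call, 6 gained one, and no called value changed sign. The 6 gained were 3 of Ltc4s by sex, 1 of Alox5ap for ozone by sex and 2 of Lta4h after ozone. With wildtype ozone M2 left out beside the 3 air arrays, Pla2g4a, Ptgdr and Slco3a1 also lost their calls in wildtype mice (adjusted p = 0.0697, 0.0649 and 0.0884). The cause was not tested. With the replicate number as a block, the dim probe set of Lta4h lost its call in wildtype mice (adjusted p = 0.0560), and the block moved none of the counts of the 13 by over 1.5 times. Dim probe sets, such as the second ones of Ptgs2 and Ptgds and the brightest ones of Hpgds and Cysltr1, limit what can be read from them. That of Alox15 was little brighter, and the same limit holds for its calls.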
